A study of Mus musculus with 6 samples.

Results

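Regulatory T cells (Treg cells), a CD4 lineage that holds immune responses in check, are recognised by a small set of identity genes, and 7 of these were followed here: Foxp3, Ikzf2, Ikzf4, Ctla4, Nrp1, Gpr83 and Lrrc32. Every probe set listed under one of these symbols was taken, which gave 14 probe sets of the 45037 on the array and covered 6 of the 7 genes, of 18193 genes with a listed probe set in all. The probe annotation used here names no probe set for Lrrc32, which was not analysed here. Foxp3 and Ctla4 have 1 probe set each, Gpr83 has 2, Ikzf2 and Ikzf4 have 3 each, and Nrp1 has 4. The arrays held RNA of sorted cells labelled nTreg from C57BL/6 mice, and the 6 arrays fall into 4 groups. One array held cells of Foxo1 knockout mice that also carried a constitutively active form of Foxo1 (Foxo1KO/Foxo1AAA), and 2 held cells of Foxo1 knockout mice (Foxo1KO). One held cells of mice with that active form and no knockout (Foxo1AAA), and 2 held cells of wild type mice (WT). The sources used here do not give the sorting gate, the age or sex of the mice, what drove the deletion or the active form, or whether the cells of several mice were pooled. The stated aim was to find genes that differed between knockout and wild type cells and to ask whether the active form brought them back.

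Foxp3 is the forkhead transcription factor that defines the lineage. Helios (Ikzf2) and Eos (Ikzf4) are zinc finger proteins of the Ikaros family that work with Foxp3, Eos as a corepressor. Ctla4 binds and removes the costimulatory ligands CD80 and CD86 from antigen presenting cells, Nrp1 is a receptor for semaphorins that is used to mark thymus-derived Treg cells, Gpr83 is a G protein coupled receptor enriched in these cells, and Lrrc32 (GARP) holds latent TGF-beta at the surface of activated Treg cells. Foxo1 is a forkhead factor that is kept out of the nucleus when Akt phosphorylates it, and in T cells it is known for keeping genes of the resting state on. The forkhead proteins of the Foxo family bind sequences built on a TAAACA core.

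Promoter sequences are shown because 2 of these genes, Nrp1 and Gpr83, were lower in the knockout and higher again with the active form, while Foxp3 and Ctla4 were not called so. The only Foxp3 probe set lay near background, as defined below, so a change in Foxp3 could hardly be read. RefSeq windows of 300 bases, 250 before and 50 after an annotated start, were found for 4 of the 7 genes (build GRCm38.p6, all on the plus strand). Capitals mark matches on either strand to 3 forkhead spellings that share the letters AAACA, namely GTAAACA as the first, then ATAAACA as the second and then CAAAACA as the third, and each line runs 5′ to 3′. The windows are chr8:128358823-128359122 for Nrp1, chr9:14859960-14860259 for Gpr83, chrX:7579426-7579725 for the first of 2 Foxp3 starts and chr1:60908775-60909074 for Ctla4.
Nrp1: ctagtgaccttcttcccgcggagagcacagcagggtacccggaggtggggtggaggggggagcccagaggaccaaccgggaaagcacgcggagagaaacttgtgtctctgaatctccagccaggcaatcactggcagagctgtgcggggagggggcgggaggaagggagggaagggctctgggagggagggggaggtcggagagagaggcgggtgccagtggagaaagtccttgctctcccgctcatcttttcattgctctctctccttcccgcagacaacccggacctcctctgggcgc
Gpr83: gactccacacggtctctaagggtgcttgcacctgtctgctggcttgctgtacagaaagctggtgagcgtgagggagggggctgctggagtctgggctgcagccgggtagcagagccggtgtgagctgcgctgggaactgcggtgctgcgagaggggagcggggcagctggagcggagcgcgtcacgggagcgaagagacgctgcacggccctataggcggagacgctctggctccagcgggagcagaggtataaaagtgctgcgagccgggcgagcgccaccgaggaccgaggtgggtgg
Foxp3: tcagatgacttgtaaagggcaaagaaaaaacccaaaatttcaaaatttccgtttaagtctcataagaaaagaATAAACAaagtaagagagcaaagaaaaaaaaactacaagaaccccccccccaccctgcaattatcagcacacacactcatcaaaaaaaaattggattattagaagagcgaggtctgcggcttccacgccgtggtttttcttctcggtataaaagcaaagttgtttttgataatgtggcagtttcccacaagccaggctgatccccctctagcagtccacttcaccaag
Ctla4: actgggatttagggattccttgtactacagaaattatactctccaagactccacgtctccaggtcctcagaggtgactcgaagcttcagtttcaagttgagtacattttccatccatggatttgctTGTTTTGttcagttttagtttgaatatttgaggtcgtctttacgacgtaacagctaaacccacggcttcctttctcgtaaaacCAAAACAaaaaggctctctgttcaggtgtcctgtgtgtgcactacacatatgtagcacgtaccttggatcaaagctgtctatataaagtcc
The Nrp1 and Gpr83 windows held none of the 3 motifs and had GC contents of 64% and 67%. The Foxp3 window held 1 ATAAACA at -178 bases from the start, and the Ctla4 window held CAAAACA at -41 and its reverse complement, TGTTTTG, at -124. Their GC contents were 40.7% and 42%, and the window of the second Foxp3 start held no match. Of all 32851 promoter windows of this length, 3.65% held GTAAACA, 4.6% held ATAAACA, 6.28% held CAAAACA and 13.5% held at least 1 of them. A match describes letters and not a bound site. Matches outside these windows were not searched for. The Nrp1 and Gpr83 windows lie inside the gene spans, which begin at 128358591 and 14859880. The bases before those gene starts were thus not searched. The Foxp3 and Ctla4 windows shown begin before their gene starts, 7579676 and 60909025, so the 4 windows are not placed alike.

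The values are log2 intensities after RMA, and a difference of 1 is a doubling in signal. A probe set was counted as near background when its mean over the 6 arrays lay under 6.34, the 95th percentile of the means of 80 probe sets for olfactory and vomeronasal receptors, whose genes T cells are not known to use. Of the 14 probe sets, 2 were near background by this measure, the only Foxp3 probe set and 1 of the 3 Ikzf4 probe sets, while 49.8% of all probe sets were. The same 2 were near background with the 90th or the 99th percentile as the limit. Replicate arrays correlated at 0.996 over all probe sets, knockout with WT arrays at 0.984 to 0.985, the 2 arrays with Foxo1AAA with each other at 0.994, and those 2 with the other 4 at 0.971 to 0.980. Xist measured 6.27 on the Foxo1KO/Foxo1AAA array, 13.14 and 12.59 on the Foxo1KO arrays, 6.04 on the Foxo1AAA array and 13.43 and 12.03 on the WT arrays. The Y-linked Eif2s3y measured 10.56 on the Foxo1KO/Foxo1AAA array, 4.05 and 9.91 on the Foxo1KO arrays, 10.59 on the Foxo1AAA array and 3.91 and 10.09 on the WT arrays, so the arrays differed in sex-linked transcripts within and between groups. Replicate 1 of Foxo1KO and of WT was low in it and replicate 2 of both was high, and the 2 arrays low in Xist are the 2 with Foxo1AAA, so a difference tied to Foxo1AAA and one tied to Xist level cannot be told apart. The targeted gene Foxo1 measured 9.66 on the Foxo1KO/Foxo1AAA array and 10.71 on the Foxo1AAA array, and averaged 10.76 in Foxo1KO and 11.19 in WT arrays, a difference of -0.43 that did not pass the test (limma, adjusted p = 0.069). The sources used here do not give the exons removed, so this level does not check the labels.

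**Figure D1:**
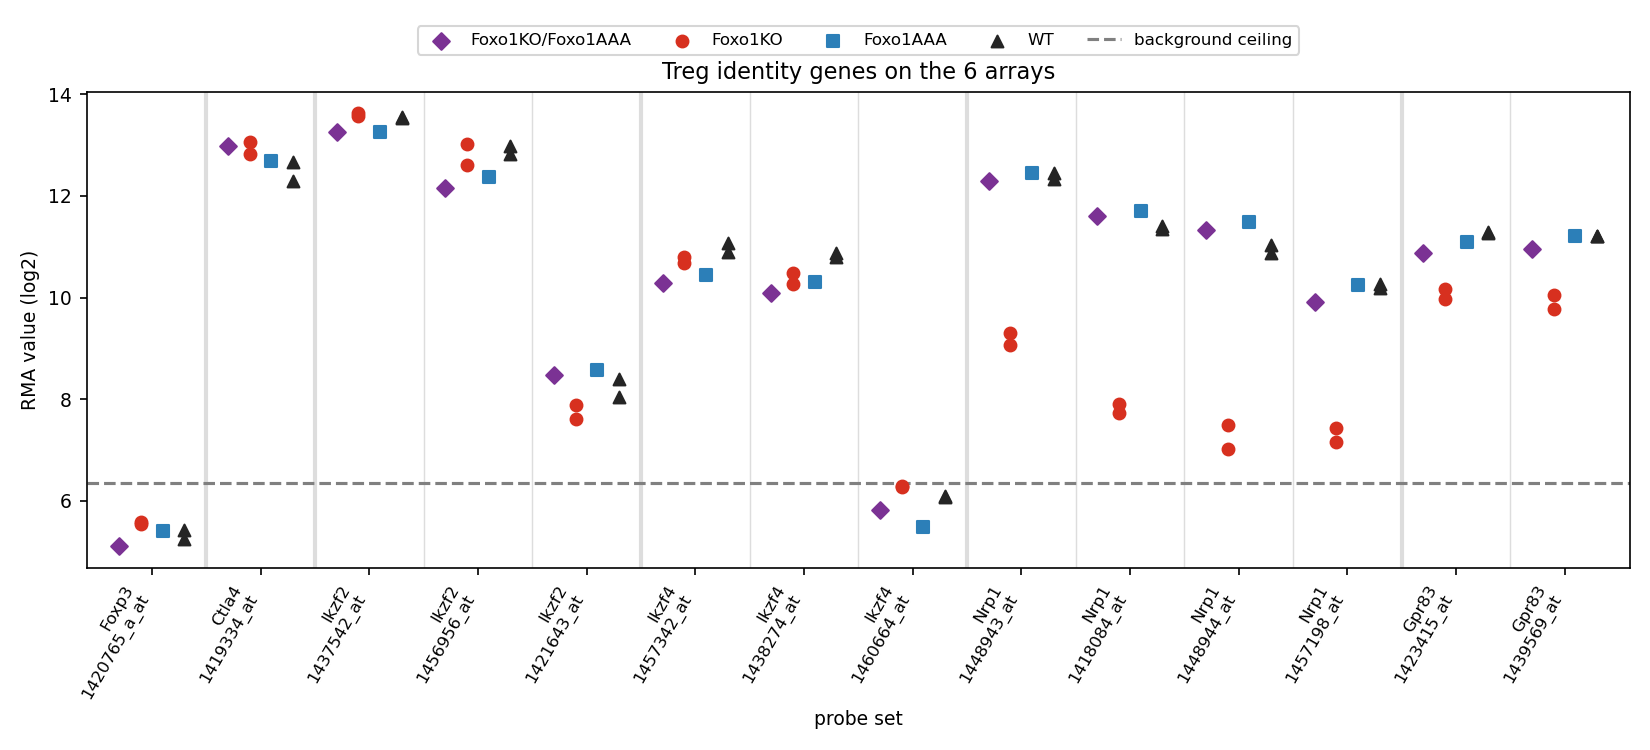
Log2 RMA intensity of the 14 probe sets on each of the 6 arrays, by group (Foxo1KO/Foxo1AAA 1 array, Foxo1KO 2, Foxo1AAA 1, WT 2), with the background limit of 6.34 marked. The 4 Nrp1 probe sets lie lowest on the Foxo1KO arrays, at 7.03 to 9.30, and Foxp3 lies under the limit on all 6 arrays.

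In Foxo1KO against WT cells, Nrp1 and Gpr83 were lower, a probe set of Ikzf4 was lower, and Foxp3, Ctla4 and Ikzf2 were not called. Over the 14 probe sets, 7 were called lower and 0 higher at an adjusted p under 0.05, while of all 45037 probe sets 13.8% were called, 8.39% lower and 5.42% higher. Of the probe sets above background, 22.8% were called. The median difference of the 14 was -0.47, against 0.01 over all probe sets, and Nrp1 alone supplies 4 of the 7 calls. Taken within replicate 1 and within replicate 2, which differ in Y-linked transcripts, Foxo1KO minus WT was -3.15 and -3.28 in Nrp1 1448943_at, -1.31 and -1.09 in Gpr83 1423415_at, and -0.61 and -0.31 in Ikzf4 1438274_at. Other probe sets were less steady, with 0.16 and 0.77 in Ctla4 and -0.16 and -0.80 in Ikzf2 1421643_at. The sign was the same in 13 of the 14 and changed in Ikzf2 1456956_at (-0.38 and 0.20). In 13 of the 14 the knockout and WT values did not overlap, which was so for 52.8% of all probe sets. In these sorted bulk samples, fewer cells that use a gene and less RNA per cell cannot be told apart. The labels do not say how many mice stand behind an array. Replicate 2 of Foxo1KO and of WT was high in Xist (12.59 and 12.03) and also in Eif2s3y (9.91 and 10.09). That is the pattern of RNA from both sexes, and pooling was not tested. The replicates of a group did not hold the same RNA, since 1 array of each pair was low and the other high in Y-linked transcripts, and p reflects how far these particular arrays differ.

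Foxp3, on chromosome X (GRCm38.p6, 7579676 to 7595243), was read by 1 probe set, 1420765_a_at. Its values were 5.10 on the Foxo1KO/Foxo1AAA array, 5.54 and 5.58 on the Foxo1KO arrays, 5.41 on the Foxo1AAA array and 5.25 and 5.43 on the WT arrays. All 6 values lie under the background limit, so the factor that defines these cells was hardly read by this array, and the differences below are of near-background signal. The difference of Foxo1KO from WT, 0.22 (SE 0.11, adjusted p = 0.24), was not called, nor was that of Foxo1AAA from WT, 0.07 (adjusted p = 0.75). Foxo1KO/Foxo1AAA was lower than Foxo1KO by a difference of -0.46 (adjusted p = 0.028), and the call was lost without Foxo1KO replicate 1 (0.077), without Foxo1KO replicate 2 (0.089) and with arrays centred on their medians (0.058). Other defining T cell markers were bright on all arrays: Cd3e at 10.54 to 10.82, Il2ra, the high affinity IL-2 receptor chain of Treg cells, at 11.15 to 11.48, and Cd4 at 9.28 to 9.70. Of the 10 T cell markers measured, Foxp3 was the 1 near background.

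Ikzf2, Helios, on chromosome 1 (69531207 to 69687351), had 3 probe sets that did not move together. The brightest, 1437542_at, measured 13.26 on the Foxo1KO/Foxo1AAA array, 13.57 and 13.63 on the Foxo1KO arrays, 13.26 on the Foxo1AAA array and 13.53 and 13.56 on the WT arrays. Its mean stands at the 99.5th percentile of all probe sets, where array signal flattens. The difference of Foxo1KO from WT was 0.06 with a 95% interval of -0.17 to 0.28 (adjusted p = 0.80). The 2 arrays with Foxo1AAA were the lowest, and the difference of Foxo1KO/Foxo1AAA from Foxo1KO was -0.34 (adjusted p = 0.060). It was called with a variance trend (0.0044), with 1 probe set per gene (0.047) and with probe sets under the background limit left out (0.0497). With a variance trend the 2 groups with Foxo1AAA were also called lower than WT, Foxo1KO/Foxo1AAA by -0.28 (0.013) and Foxo1AAA by -0.28 (0.015).

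Probe set 1456956_at of Ikzf2 measured 12.15 on the Foxo1KO/Foxo1AAA array, 12.60 and 13.03 on the Foxo1KO arrays, 12.37 on the Foxo1AAA array and 12.98 and 12.83 on the WT arrays. Knockout and WT values overlapped, and both arrays with Foxo1AAA lay below the other 4. Foxo1KO/Foxo1AAA was called lower than Foxo1KO (-0.67, adjusted p = 0.023, lost without Foxo1KO replicate 2 at 0.077) and lower than WT (-0.76, adjusted p = 0.018). Foxo1AAA differed from WT by -0.54 (adjusted p = 0.060), called with a variance trend (0.023) and without either Foxo1KO replicate (0.036). Probe set 1421643_at went the other way, with 8.47 on the Foxo1KO/Foxo1AAA array, 7.88 and 7.61 on the Foxo1KO arrays, 8.57 on the Foxo1AAA array and 8.04 and 8.40 on the WT arrays. Here the knockout values were the lowest, and Foxo1KO/Foxo1AAA was called higher than Foxo1KO (0.73, adjusted p = 0.016, lost without Foxo1KO replicate 2 at 0.082). The difference of Foxo1KO from WT was -0.48 (adjusted p = 0.064), called without WT replicate 1 at -0.66 (0.021) and with centred arrays (0.038). No single direction can be given for Ikzf2 from these probe sets.

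Ikzf4, Eos, on chromosome 10 (128630839 to 128669671), was called lower in both groups with Foxo1AAA against WT by its 2 probe sets above background. Probe set 1457342_at measured 10.28 on the Foxo1KO/Foxo1AAA array, 10.68 and 10.81 on the Foxo1KO arrays, 10.45 on the Foxo1AAA array and 11.07 and 10.89 on the WT arrays. Foxo1KO/Foxo1AAA was below WT by a difference of -0.70 (SE 0.13, adjusted p = 0.0076), Foxo1AAA was below WT by -0.53 (adjusted p = 0.023), and the difference of Foxo1KO from WT, -0.24, was not called (adjusted p = 0.21). Foxo1KO/Foxo1AAA was also called below Foxo1KO (-0.46, adjusted p = 0.032). This last call was lost without Foxo1KO replicate 1 (0.061), without Foxo1KO replicate 2 (0.11) and with centred arrays (0.076).

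Probe set 1438274_at of Ikzf4 measured 10.09 on the Foxo1KO/Foxo1AAA array, 10.26 and 10.49 on the Foxo1KO arrays, 10.31 on the Foxo1AAA array and 10.87 and 10.80 on the WT arrays. The WT arrays were the highest and did not overlap with any other array. Foxo1KO was called lower than WT (-0.46, SE 0.11, adjusted p = 0.027), and this call was lost without Foxo1KO replicate 1 (0.16), without WT replicate 1 (0.12), without WT replicate 2 (0.064) and with the replicate number as a block (0.057). Foxo1KO/Foxo1AAA was called lower than WT (-0.74, adjusted p = 0.0065) in every alternative run, and so was 1457342_at. Foxo1AAA was called lower than WT as well (-0.52, adjusted p = 0.027), lost without WT replicate 1 (0.080), without WT replicate 2 (0.053) and with centred arrays (0.072), and the same comparison of 1457342_at was lost without WT replicate 1 (0.086) and with centred arrays (0.062). The third probe set, 1460664_at, lay near background at 5.82 on the Foxo1KO/Foxo1AAA array, 6.29 and 6.26 on the Foxo1KO arrays, 5.48 on the Foxo1AAA array and 6.10 and 6.08 on the WT arrays. It was called lower in Foxo1AAA against WT (-0.61, adjusted p = 0.0093) and in Foxo1KO/Foxo1AAA against Foxo1KO (-0.46, adjusted p = 0.020), the second of these lost without Foxo1KO replicate 1 (0.065) or 2 (0.055), and its difference of Foxo1KO from WT was 0.19 (adjusted p = 0.28), opposite in sign to the brighter probe sets.

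Ctla4, on chromosome 1 (60909025 to 60915832), was among the brightest transcripts of these cells, at the 98.9th percentile of probe set means. Its probe set, 1419334_at, measured 12.98 on the Foxo1KO/Foxo1AAA array, 12.83 and 13.06 on the Foxo1KO arrays, 12.68 on the Foxo1AAA array and 12.67 and 12.29 on the WT arrays. The WT arrays were the lowest and did not overlap with the knockout arrays. Ctla4 averaged 12.94 ± 0.16 in Foxo1KO and 12.48 ± 0.27 in WT arrays (SD, n = 2 each), a difference of 0.46 with a 95% interval of 0.14 to 0.79 that did not pass over all probe sets (limma, adjusted p = 0.070). It passed with 1 probe set per gene (0.049), with a variance trend (0.020) and without WT replicate 1 (difference 0.65, 0.020), and reached 0.35 in the weakest alternative. Foxo1KO/Foxo1AAA differed from Foxo1KO by 0.04, with an interval of -0.37 to 0.44 (adjusted p = 0.90), and from WT by 0.50 (adjusted p = 0.071), which passed with centred arrays (0.046), with a variance trend (0.027) and without WT replicate 1 (0.022). Foxo1AAA differed from WT by 0.20 (adjusted p = 0.44).

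Nrp1, on chromosome 8 (128358591 to 128505476), showed the largest differences of the 6 genes, and the knockout arrays were the lowest in all 4 of its probe sets. The brightest, 1448943_at, measured 12.30 on the Foxo1KO/Foxo1AAA array, 9.30 and 9.07 on the Foxo1KO arrays, 12.45 on the Foxo1AAA array and 12.45 and 12.34 on the WT arrays. It averaged 9.18 ± 0.17 in Foxo1KO and 12.40 ± 0.08 in WT arrays (SD, n = 2 each), a difference of -3.21 (SE 0.11, adjusted p = 2.1e-06), or 9.28-fold lower. The knockout arrays stood apart from the other 4, which lay between 12.30 and 12.45.

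Probe set 1418084_at of Nrp1 measured 11.61 on the Foxo1KO/Foxo1AAA array, 7.91 and 7.72 on the Foxo1KO arrays, 11.71 on the Foxo1AAA array and 11.34 and 11.41 on the WT arrays. Probe set 1448944_at measured 11.33 on the Foxo1KO/Foxo1AAA array, 7.49 and 7.03 on the Foxo1KO arrays, 11.49 on the Foxo1AAA array and 10.88 and 11.04 on the WT arrays. Probe set 1457198_at measured 9.91 on the Foxo1KO/Foxo1AAA array, 7.43 and 7.15 on the Foxo1KO arrays, 10.24 on the Foxo1AAA array and 10.19 and 10.27 on the WT arrays. In all 3 the knockout values were the lowest, with differences from WT of -3.56, -3.70 and -2.94 (adjusted p = 1.2e-06, 4.0e-06 and 3.8e-06). The first 3 Nrp1 probe sets share a target accession and are not independent readings. The knockout means of 1448944_at and 1457198_at, 7.26 and 7.29, lie above the background limit but under 7.53, the 99th percentile of the receptor probe sets, so their fold differences may be understated.

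With the active form in the knockout, Nrp1 was higher again, and no probe set was called different from WT. Foxo1KO/Foxo1AAA exceeded Foxo1KO by 3.11 in 1448943_at, 3.79 in 1418084_at, 4.07 in 1448944_at and 2.62 in 1457198_at, and these 4 calls, like the 4 in Foxo1KO against WT, were kept in every alternative run. Its difference from WT was -0.10 in 1448943_at (95% interval -0.42 to 0.22), 0.23 in 1418084_at (-0.07 to 0.53), 0.37 in 1448944_at (-0.06 to 0.79) and -0.32 in 1457198_at (-0.66 to 0.01). None of the 4 was called, and the interval of 1448944_at reaches 0.79, so an equal level is not shown. Foxo1AAA differed from WT by 0.05 in 1448943_at, 0.33 in 1418084_at, 0.54 in 1448944_at and 0.01 in 1457198_at, and none of these was called (lowest adjusted p = 0.068, in 1448944_at). The difference of 1448944_at was called with a variance trend (0.045), with centred arrays (0.023) and without either Foxo1KO replicate (0.037), and that of 1418084_at with centred arrays (0.037). In the interaction test, which asks whether the knockout difference is the same with and without Foxo1AAA, all 4 were called, at 3.06 in 1448943_at, 3.46 in 1418084_at, 3.53 in 1448944_at and 2.61 in 1457198_at, and in every alternative run.

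Gpr83, on chromosome 9 (14859880 to 14870789), followed Nrp1 at a smaller size. Probe set 1423415_at measured 10.89 on the Foxo1KO/Foxo1AAA array, 9.98 and 10.17 on the Foxo1KO arrays, 11.09 on the Foxo1AAA array and 11.29 and 11.27 on the WT arrays. Probe set 1439569_at measured 10.95 on the Foxo1KO/Foxo1AAA array, 9.78 and 10.04 on the Foxo1KO arrays, 11.21 on the Foxo1AAA array and 11.22 and 11.22 on the WT arrays. The knockout arrays were the lowest in both. Foxo1KO differed from WT by -1.20 and -1.31 (adjusted p = 1.5e-04 and 1.4e-04), or 2.30-fold and 2.48-fold lower, and both calls were kept in every alternative run.

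Gpr83 was higher again with the active form. Foxo1KO/Foxo1AAA exceeded Foxo1KO by 0.81 in 1423415_at (adjusted p = 0.0029) and 1.04 in 1439569_at (adjusted p = 0.0013). Its difference from WT was -0.39 (95% interval -0.69 to -0.10, adjusted p = 0.059) and -0.27 (-0.59 to 0.05, adjusted p = 0.19), neither of them called. The difference of 1423415_at was called with 1 probe set per gene (0.048), with probe sets under the background limit left out (0.049) and with a variance trend (0.028). The interaction was called at 1.00 and 1.05 (adjusted p = 0.028 and 0.030), and without Foxo1KO replicate 1 it had adjusted p of 0.093 and 0.089, without Foxo1KO replicate 2 of 0.067 and 0.059.

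**Figure D2:**
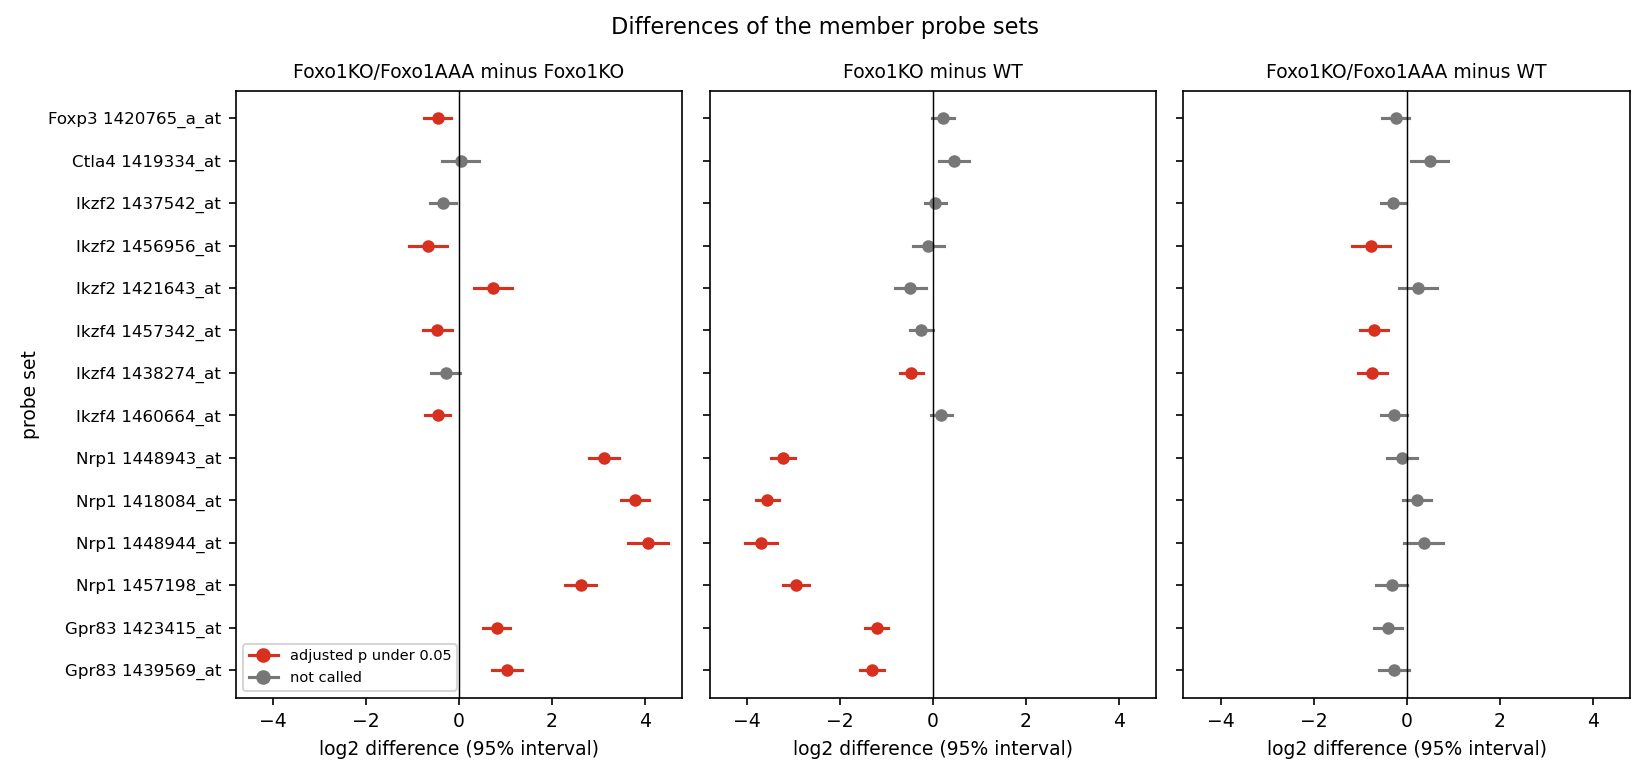
Log2 differences of the 14 probe sets (points) with their 95% intervals (lines), for Foxo1KO/Foxo1AAA minus Foxo1KO, Foxo1KO minus WT and Foxo1KO/Foxo1AAA minus WT, red where the adjusted p was under 0.05. Nrp1 and Gpr83 lie left of 0 in Foxo1KO minus WT (-3.70 to -1.20) and right of 0 in Foxo1KO/Foxo1AAA minus Foxo1KO (0.81 to 4.07).

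Across all 14 probe sets, Foxo1KO/Foxo1AAA against Foxo1KO gave 7 higher and 4 lower, where 30.7% of all probe sets were called, 14.4% higher and 16.3% lower. The 7 were the 4 of Nrp1, the 2 of Gpr83 and Ikzf2 1421643_at, and the 4 were Foxp3, Ikzf2 1456956_at and 2 of Ikzf4. Without Foxo1KO replicate 1 the counts were 7 and 1, without Foxo1KO replicate 2 they were 6 and 0, and with centred arrays 7 and 2. Foxo1AAA against WT gave 0 higher and 3 lower, all of Ikzf4, where 23.7% were called, 13.3% lower, and without WT replicate 1 the counts were 0 and 1. With arrays centred on their medians they were 2 and 1, the 2 being Nrp1 1418084_at and 1448944_at, since centring adds 0.11 to every difference of Foxo1AAA from WT. At an unadjusted p under 0.05, limma passed 7 of the 14 there, where 38.1% of all probe sets passed. Foxo1KO/Foxo1AAA against WT gave 0 higher and 3 lower, Ikzf2 1456956_at and both brighter probe sets of Ikzf4, where 24.5% were called, 12.8% lower. At an unadjusted p under 0.05, limma passed 7 of the 14 there and 38.4% of all probe sets. Foxo1KO/Foxo1AAA against Foxo1AAA gave 0 of 14, where 0.06% were called. At an unadjusted p under 0.05, limma passed 1 of the 14 there, Ikzf4 1460664_at near background, and 13.4% of all probe sets. The interaction gave 6 higher and 0 lower, the probe sets of Nrp1 and Gpr83, where 3.04% were called, 1.76% higher. Comparisons that share the same arrays are not independent of each other, and the 2 groups with 1 array each were taken to vary like the other groups.

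Markers of other cell types moved with these groups. The summed level of 11 myeloid markers, as log2, was 13.65 on the Foxo1KO/Foxo1AAA array, 11.56 and 11.14 on the Foxo1KO arrays, 13.38 on the Foxo1AAA array and 10.48 and 10.63 on the WT arrays. Of these 11, 9 were called higher and 1 lower in Foxo1KO/Foxo1AAA against WT, 9 higher in Foxo1AAA against WT and 3 higher in Foxo1KO against WT. Over all genes, by the brightest probe set of each, 23.2% were called in Foxo1KO/Foxo1AAA against WT (12.2% higher) and 22.7% in Foxo1AAA against WT (10.5% higher). In Foxo1KO against WT 14.2% were called (7.38% higher). Of the defining myeloid markers, Itgam, S100a8, S100a9 and Mpo lay near background, while Csf1r measured 12.38 on the Foxo1KO/Foxo1AAA array, 9.12 and 8.52 on the Foxo1KO arrays, 11.99 on the Foxo1AAA array and 8.36 and 8.93 on the WT arrays. Plasmacytoid dendritic cells also carry Nrp1, and 6 of their markers summed to 11.32 on the Foxo1KO/Foxo1AAA array, 11.21 and 11.34 on the Foxo1KO arrays, 11.24 on the Foxo1AAA array and 10.39 and 10.44 on the WT arrays, with 5 of 6 higher in both Foxo1AAA-bearing groups against WT and 3 of 6 in Foxo1KO. The 3 in Foxo1KO were Irf8 (1.53), Bst2 (1.24) and Ccr9 (0.39), the last lost without any 1 replicate. Siglech averaged 5.98 in Foxo1KO and 5.99 in WT arrays, Tcf4 5.79 and 6.05, and Ly6d 6.61 and 6.67. In Foxo1KO/Foxo1AAA against Foxo1KO, 3 of the 6 were higher, Tcf4, Ly6d and Siglech, and 2 were lower, Irf8 and Ccr9. Of all genes, 31.5% were called there, 13.9% higher and 17.6% lower. Tcf4, a transcription factor of those cells, measured 8.80 on the Foxo1KO/Foxo1AAA array, 5.94 and 5.64 on the Foxo1KO arrays, 8.48 on the Foxo1AAA array and 5.98 and 6.11 on the WT arrays. Siglech, their defining surface marker, measured 6.94 on the Foxo1KO/Foxo1AAA array, 6.22 and 5.73 on the Foxo1KO arrays, 6.97 on the Foxo1AAA array and 5.76 and 6.23 on the WT arrays, so it passed the background limit on the 2 arrays with Foxo1AAA and on none of the other 4. Tcf4 and Siglech thus passed the background limit on both arrays with Foxo1AAA and lay under it on the WT arrays. By its mean over the 6 arrays, 6.31, Siglech counts as near background. The part of plasmacytoid dendritic cells, or of other cells whose markers were higher there, in the higher Nrp1 values with Foxo1AAA was not tested.

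Dendritic cell markers (10) summed to 13.29 on the Foxo1KO/Foxo1AAA array, 11.94 and 11.09 on the Foxo1KO arrays, 13.16 on the Foxo1AAA array and 10.29 and 10.59 on the WT arrays. Against WT, 8 were called higher and 1 lower in each Foxo1AAA-bearing group, and 4 higher in Foxo1KO. In Foxo1KO/Foxo1AAA against Foxo1KO, 7 were higher and 2 lower. The shares over all genes are given above. The brightest by mean was H2-Aa (10.43), an MHC class II chain. Zbtb46 measured 6.46 on the Foxo1KO/Foxo1AAA array, 6.26 on the Foxo1AAA array and 7.06 to 7.29 on the Foxo1KO and WT arrays. B cell markers (7) summed to 13.53 on the Foxo1KO/Foxo1AAA array, 12.46 and 11.98 on the Foxo1KO arrays, 13.74 on the Foxo1AAA array and 12.61 and 12.80 on the WT arrays. Against WT, 5 were called higher in each Foxo1AAA-bearing group, and 1 higher and 1 lower in Foxo1KO. Ighm was the brightest by mean (12.59), while Pax5 lay at 6.63 to 6.95 and Blk at 6.23 to 6.83 over the 6 arrays. The 7 CD8 T and NK cell markers summed to 10.54 on the Foxo1KO/Foxo1AAA array and 10.01 on the Foxo1AAA array. Their sums were 10.64 and 10.71 on the Foxo1KO arrays and 9.52 and 9.50 on the WT arrays. In Foxo1KO against WT, 4 of the 7 were called higher and 0 lower, among them Klrc1 (4.04), Eomes (2.25) and Xcl1 (1.27). Cd8a lay at 7.71 to 8.13 on the Foxo1KO and WT arrays, whose values overlapped. Cd8b1 averaged 7.77 in Foxo1KO and 7.59 in WT arrays. Ncr1 lay near background, at 5.29 to 5.76 over the 6 arrays. Whether CD8 T or NK cells were present was not tested. The 4 erythroid markers summed to 9.73 on the Foxo1KO/Foxo1AAA array, 8.29 and 8.15 on the Foxo1KO arrays, 10.19 on the Foxo1AAA array and 8.19 and 8.48 on the WT arrays. By its mean, 1 of these 4 lay above background, Car2, and the summed level rests largely on it. Hba-a1 lay at 5.07 to 5.41, and Alas2 under the background limit, on all 6 arrays. Slc4a1 passed the limit only on the arrays with Foxo1AAA (6.72 and 7.09). Car2 measured 9.32 on the Foxo1KO/Foxo1AAA array and 9.87 on the Foxo1AAA array. It measured 7.40 and 7.09 on the Foxo1KO arrays and 7.43 and 7.73 on the WT arrays. In contrast, 10 T cell markers summed to 15.35 on the Foxo1KO/Foxo1AAA array, 15.17 and 15.22 on the Foxo1KO arrays, 15.40 on the Foxo1AAA array and 15.30 and 15.38 on the WT arrays. Of these 10, Cd5 (-0.40) and Cd4 (-0.37) were called lower in Foxo1KO against WT, and both calls were lost when any 1 replicate was left out. The lower Ikzf4 and Ikzf2 1456956_at values on the arrays with Foxo1AAA stand beside these values, and the part of other cells in them was not tested.

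**Figure D3:**
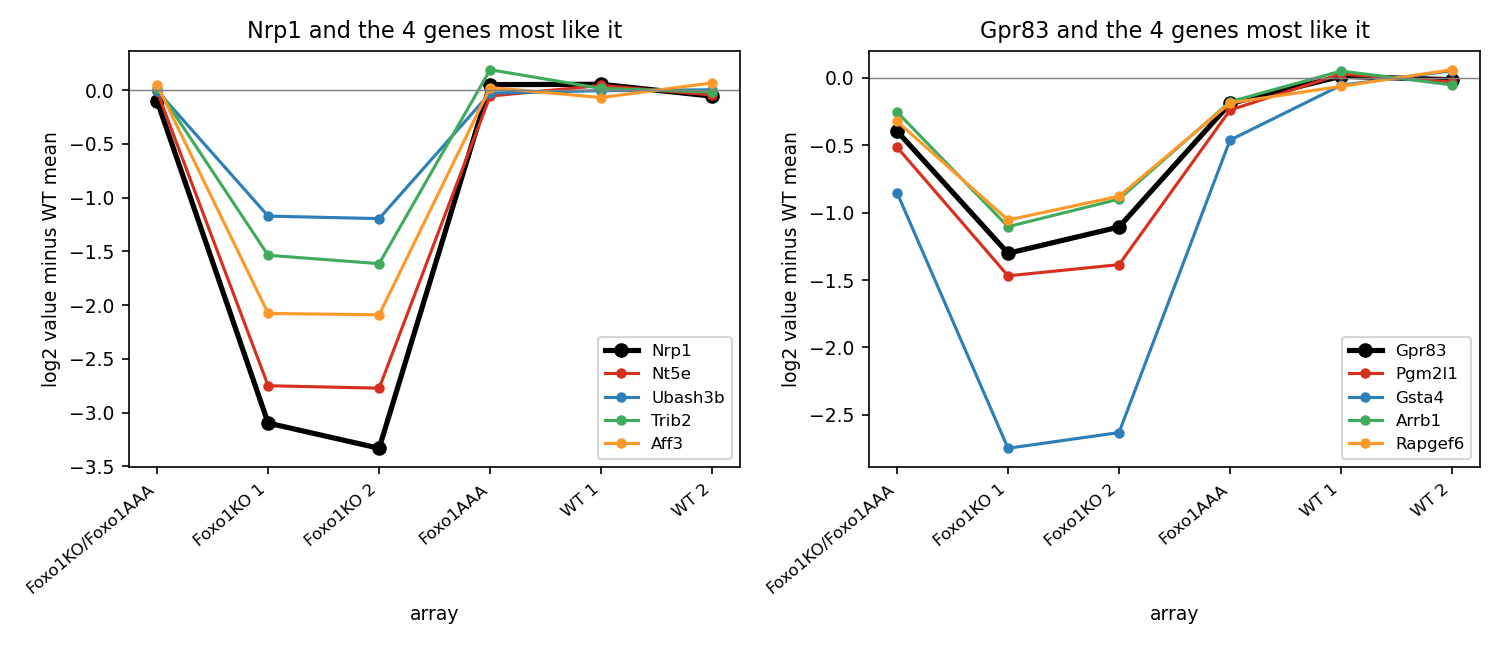
Log2 value minus the WT mean, on each of the 6 arrays, for Nrp1 (left) and Gpr83 (right), each with the 4 genes whose values correlate most with it; lines join the values of 1 gene. In each gene the 2 Foxo1KO arrays are the lowest.

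Likeness to Nrp1 and Gpr83 was measured by correlation over the 6 arrays. Among 1526 genes above background that span at least 1 log2 unit over the 6 arrays, the 4 with the highest Pearson r to Nrp1 1448943_at were Nt5e (r = 0.9985), the ecto-enzyme CD73 that makes adenosine, Ubash3b (0.9983), a phosphatase that dampens T cell receptor signalling, Trib2 (0.9973), a pseudokinase, and Aff3 (0.9964), a nuclear protein of the AF4 family. Nt5e measured 11.63 on the Foxo1KO/Foxo1AAA array, 8.89 and 8.86 on the Foxo1KO arrays, 11.58 on the Foxo1AAA array and 11.68 and 11.59 on the WT arrays. For Gpr83 1423415_at they were Pgm2l1 (0.9971), which makes glucose 1,6-bisphosphate, Gsta4 (0.9959), a glutathione transferase, Arrb1 (0.9957), a beta-arrestin that binds active G protein coupled receptors, and Rapgef6 (0.9945), an exchange factor for Rap proteins. These correlations describe 6 arrays in 4 groups, which share the knockout arrays as their lowest values.

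Genes around the members were followed in 6 lists, 1 probe set per gene. The Ikaros family list holds the members Ikzf2 and Ikzf4 themselves, and Ikzf3 stands both there and in the Treg signature. Icos stands both in the Treg signature and among the Ctla4 relatives, and the Foxp3 partners include Foxo1, the targeted gene. In Foxo1KO against WT, 14.2% of the 18193 genes were called, 7.38% higher and 6.78% lower, with a median difference of 0.03. Of 25 other genes of the Treg signature, 10 were higher and 5 lower, with a median of 0.31. The highest were Penk (2.06), a precursor of opioid peptides, Klrg1 (2.06), a receptor of effector cells, and Cst7 (1.43), a protease inhibitor, and the lowest were Nt5e (-2.76), Plagl1 (-1.47), a zinc finger factor, and Ecm1 (-0.87), a secreted matrix protein. When 1 replicate was left out, 7 to 8 were higher and 4 to 5 lower.

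Of 28 partners and inputs of Foxp3, 2 were higher and 8 lower, with a median of -0.16, and 3 to 6 were lower when 1 replicate was left out. Foxp1 (-1.60), a forkhead factor related to Foxp3, Bach2 (-1.42), a repressor of effector genes, and Irf4 (-0.74), a factor of effector Treg cells, were the lowest. Dnmt1 (0.63), the maintenance DNA methyltransferase, and Nfatc2 (0.41), which binds with Foxp3, were higher, and the Nfatc2 call was lost without any 1 replicate and with the replicate block (adjusted p = 0.074). Of the 5 Ikaros family genes, 1 was called, Ikzf3 at 0.38 (adjusted p = 0.049), and it too was lost without any 1 replicate and with the block (0.10).

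Of 10 ligands and partners of Nrp1, 3 were higher and 0 lower while Nrp1 itself was lower: Sema4a (1.20) and Sema4d (0.60), which are semaphorins, and the semaphorin receptor Plxnd1 (0.70). Of 12 genes of the latent TGF-beta axis that Lrrc32 belongs to, 2 were higher and 2 lower. Tgfb3 (1.42), a TGF-beta ligand, had a WT mean of 5.95, under the background limit, so its difference may be understated, and Nrros (0.60), a relative of Lrrc32 that anchors latent TGF-beta, was lost without Foxo1KO replicate 2 (adjusted p = 0.075). Itgb8 (-1.02), an integrin chain that activates latent TGF-beta, was lost without Foxo1KO replicate 1 (0.062), and Tgfbr2 (-0.66) is a TGF-beta receptor chain. Of 13 ligands, relatives and trafficking partners of Ctla4, 1 was higher, Cd80 (0.48), and 4 were lower, among them Btla (-1.30) and Cd28 (-1.19), receptors of the same family, and Trat1 (-0.91), an adaptor. The Cd80 call was lost without Foxo1KO replicate 1, without Foxo1KO replicate 2, without WT replicate 2 and with the block (adjusted p = 0.071).

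**Figure D4:**
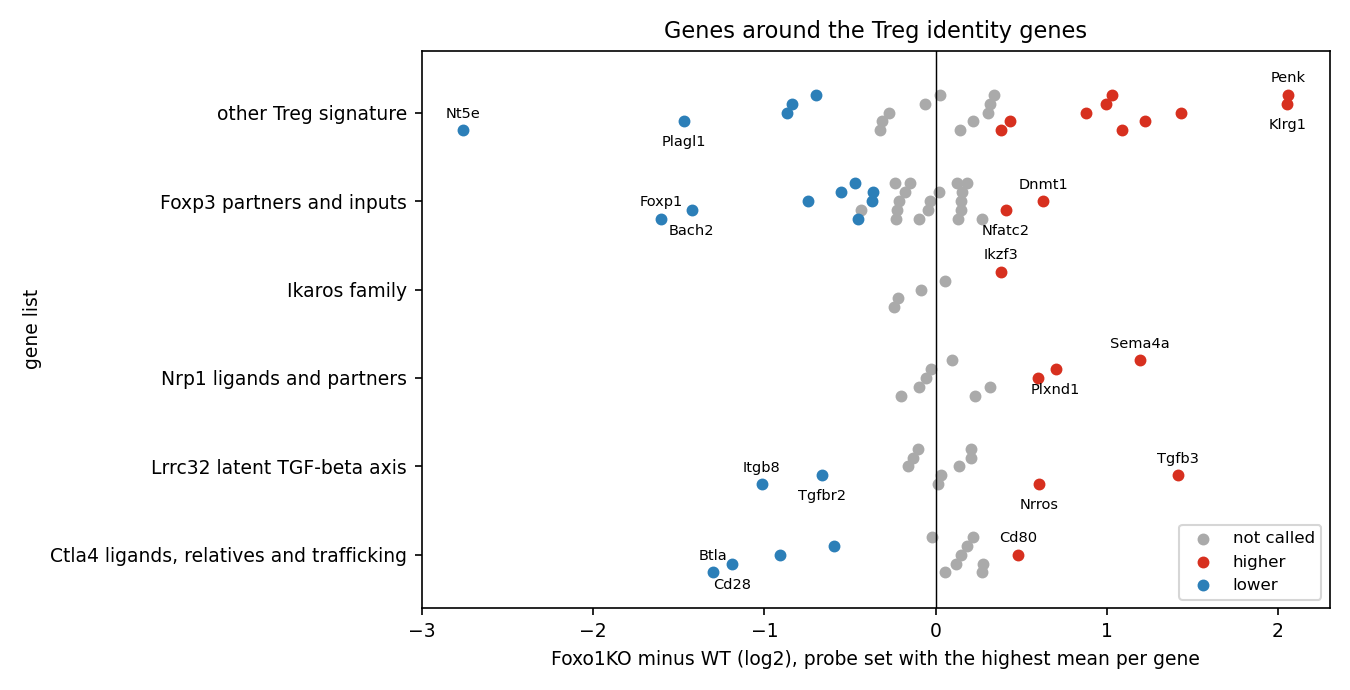
Log2 difference of Foxo1KO minus WT for each gene of the 6 lists, by its brightest probe set, coloured by whether it was called. The genes run from Nt5e at -2.76 to Penk at 2.06.

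With the active form in the knockout, Foxo1KO/Foxo1AAA against Foxo1KO, 31.5% of genes were called, 13.9% higher and 17.6% lower. The counts higher and lower were 10 and 6 of 25 for the Treg signature, 7 and 5 of 28 for the Foxp3 partners, 0 and 1 of 5 for the Ikaros family (the 1 being the member Ikzf4, by 1457342_at, given above), 0 and 4 of 10 for the Nrp1 partners, 3 and 3 of 12 for the TGF-beta axis and 5 and 0 of 13 for the Ctla4 relatives. Nt5e (2.75), Plagl1 (1.47) and Bach2 (1.08) were higher there. Btla (1.48) and Cd28 (1.35) were higher as well. Penk (-3.29), Klrg1 (-2.21), Sema4a (-1.50) and Sema4d (-0.77) were lower. Each gene given a value here went opposite to its difference in Foxo1KO against WT. Other genes named above for Foxo1KO against WT are not followed here. Against WT, the Treg signature held 11 higher and 2 lower of 25 in Foxo1KO/Foxo1AAA, where 23.2% of genes were called (12.2% higher). It held 10 higher and 3 lower in Foxo1AAA, where 22.7% were called (10.5% higher).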

How the data were processed

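The deposited series table gives log2 values for 45101 probe sets on 6 arrays. The submitters' processing notes name RMA, R 2.15 and limma 3.12.1 as tools. The values are log2 expression after RMA, and its quantile normalization hides a shift of most transcripts. Of the total RNA (miRNeasy kit), 2 ug was labelled, per the labels' protocols. The 64 control rows were left out and symbols were updated through Entrez identifiers (34945 probe sets with 1 gene, 932 with several, 9160 not listed). Limma 3.58.1 in R 4.3.3 was fitted to all 6 arrays with 1 coefficient per group (2 residual and 6.62 prior degrees of freedom), two-sided, with Benjamini-Hochberg adjustment over 45037 probe sets and calls at 0.05. Lists used the probe set with the highest mean per gene. Named genes were all member probe sets, up to 3 called genes each way per list, and the 4 closest genes of Nrp1 and Gpr83. The members and lists were chosen with earlier results of these data known. Alternatives were filters, probe sets per gene, variance priors, centring, left-out replicates and a replicate block. The same-numbered Foxo1KO and WT arrays did not deviate together over probe sets above background (r = -0.033). The number of arrays limits the precision.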

Additional observations from a re-analysis of the deposited data

Results flagged for a closer look

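In Nrp1 and Gpr83 the knockout difference was not the same with and without Foxo1AAA, by the interaction test of limma. For Nrp1 1448943_at the difference between the 2 was 3.06 (knockout difference -0.15 with Foxo1AAA and -3.21 without), for 1418084_at 3.46 (-0.10 and -3.56), for 1448944_at 3.53 (-0.17 and -3.70) and for 1457198_at 2.61 (-0.33 and -2.94). Their adjusted p were 4.0e-04, 2.4e-04, 8.3e-04 and 0.0011. For Gpr83 1423415_at it was 1.00 (-0.21 and -1.20, adjusted p = 0.028) and for 1439569_at 1.05 (-0.26 and -1.31, adjusted p = 0.030). The Gpr83 calls were lost when either Foxo1KO replicate was left out. Groups of 1 or 2 arrays are too small to test for outlying arrays.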

How the results depend on the processing

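The percentage of features called in Foxo1KO against WT was 13.8, 26.2 with probe sets under the background limit left out, and 7.72 to 10 with 1 replicate left out. With the replicate number as a block it was 10.8, and 2 of the 6 member genes stayed called by their brightest probe set, as without it; the block ended the call of Ikzf4 1438274_at and of no other member probe set, and the labels do not say what the numbers stand for. They go with the level of Y-linked transcripts, low on replicate 1 and high on replicate 2 of both groups, while deviations over all probe sets above background did not go together (r = -0.033). With 1 replicate left out it was 19.4 to 30.2 in Foxo1KO/Foxo1AAA against Foxo1KO, 15.3 to 20.7 in Foxo1AAA against WT, 16 to 21.3 in Foxo1KO/Foxo1AAA against WT and 0.533 to 2.84 in the interaction. The interaction gave 4.96 with 1 probe set per gene. Foxo1KO/Foxo1AAA against Foxo1AAA gave 0.06, then 0.0266 without the lowest 25%, 0.00884 without probe sets under the limit, 0.401 with 1 probe set per gene, 0.517 with the mean of probe sets, 0.389 with a variance trend, 0.333 with centred arrays and 0.0178 to 0.289 with 1 replicate left out. Member genes called by their brightest probe set were 4 in Foxo1KO/Foxo1AAA against Foxo1KO, 5 with a variance trend, 5 with 1 probe set per gene, 2 with centred arrays and 2 to 4 with 1 replicate left out. In Foxo1AAA against WT they were 1, then 2 with a variance trend, 0 with centred arrays and 0 to 1 with 1 replicate left out. In Foxo1KO/Foxo1AAA against WT they were 1, then 2 without probe sets under the limit, 2 with 1 probe set per gene, 4 with a variance trend, 2 with centred arrays and 1 to 2 with 1 replicate left out. In the interaction they were 2, and 1 to 2 with 1 replicate left out. The direction turned in 8 uncalled values. With the mean of probe sets, Ikzf2 in Foxo1KO against WT was -0.17, Nrp1 in Foxo1KO/Foxo1AAA against WT was 0.043 and the Ikzf2 interaction was 0.067. With 1 replicate left out, Ctla4 in Foxo1KO/Foxo1AAA against Foxo1KO was -0.081 to 0.15, Foxp3 in Foxo1AAA against WT -0.025 to 0.16, Nrp1 in Foxo1AAA against WT -0.0030 to 0.11, the Ikzf4 interaction -0.016 to 0.16 and the Ctla4 interaction -0.35 to 0.023. The filters and left-out arrays change how many features or arrays are tested, and the cause was not tested for the others. Dim signal limits Foxp3.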
